A study of Mus musculus with 5 samples.

Results

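The 9 genes followed here carry retinoids into cells, turn them into retinoic acid, bind it, respond to it or break it down. They were read in uteri of young mice with a conditional loss of Dicer, the nuclease that releases mature microRNAs from their hairpin precursors. The genes are Aldh1a3, Aldh1a2, Stra6, Rbp4, Crabp1, Crabp2, Rara, Rarb and Cyp26a1, which the array lists in capitals as ALDH1A3, ALDH1A2, STRA6, RBP4, CRABP1, CRABP2, RARA, RARB and CYP26A1, and every probe under one of these names was taken. That gave 17 of the 45281 probes and 9 of the 31490 names on the array. The study read total RNA of uterine tissue at 15 days of age, and all mice shared a C57BL/6J;129S5/Brd mixed hybrid background. Each sample was a pool of uteri on 1 Illumina bead array. The 3 control pools (7, 9 and 11) are described as wild type, and the 2 Dicer cKO pools (10 and 12) came from mice in which Cre recombinase under the control of the progesterone receptor gene removed Dicer. Such a Cre works where that gene is active, so the remaining cells of a Dicer cKO uterus keep Dicer. The labels state neither the number of uteri per pool nor whether controls carried Cre or a floxed Dicer. In what follows, values of the controls are given in the order of pools 7, 9 and 11 and those of the Dicer cKO group in the order of pools 10 and 12.

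Retinoic acid is made from vitamin A. Retinol travels in blood on the carrier protein RBP4, enters some cells through the membrane receptor STRA6, is oxidised to retinaldehyde and then, by the ALDH1A enzymes, to retinoic acid, which the CRABP proteins carry within the cell. In the nucleus it binds RAR receptors paired with RXR receptors on DNA, while CYP26 enzymes destroy it. In the female reproductive tract, retinoic acid signalling takes part in setting apart uterine and vaginal fates of the Müllerian duct, and vitamin A status is known to influence whether epithelia of the tract become simple or stratified.

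Between 47.0% and 49.5% of all probes were detected per array (detection p under 0.05), with a median of 44 beads behind each probe. Across the 22845 tested probes, which were detected on at least 2 of the 5 arrays, the arrays of the Dicer cKO pools correlated at 0.993 and those of the control pools at 0.992 or above, against 0.977 to 0.989 between the groups. The brighter Dicer1 probe, listed on the array as D12ERTD7E, differed by -0.43 ± 0.09 log2 units (SE; limma adjusted p = 0.0233). The dimmer, listed as DICER1, differed by -0.22 ± 0.13 (limma adjusted p = 0.392) and was not called. Whether these probes lie inside the deleted stretch is unknown, so they are a weak check of the labels. Pgr, the progesterone receptor gene whose control the Cre is under, differed by -0.77 ± 0.14 (limma adjusted p = 0.0079). Whether the controls carried this Cre is not stated. An effect of the Cre allele therefore cannot be told apart from loss of Dicer, here or for any other gene. Of 5 genes that mark uterine tissue, Hoxa10, Hoxa11, Pgr and Esr1 were detected in both groups and Emx2 was not detected on any array.

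Direct repeats of the retinoic acid response element, the DNA sequence that RAR and RXR bind, were searched for in RefSeq promoter windows (GRCm38.p6) that run from 250 bases before to 50 bases after an annotated transcription start. The search looked on both strands for GGTCA or GTTCA, the last 5 bases of the half-site, followed after 6 bases of any kind by GGTCA or GTTCA again, which is the spacing of the classical element. Windows were found for 7 of the 9 genes, 14 in all, and none was found for Aldh1a3 and Crabp2. The windows of Rarb and Cyp26a1, both textbook target genes of retinoic acid, each held 1 match. They are shown because their array signals are set against those of Aldh1a3 and Stra6 in the paragraphs that follow. The capitals mark the match.
Rarb: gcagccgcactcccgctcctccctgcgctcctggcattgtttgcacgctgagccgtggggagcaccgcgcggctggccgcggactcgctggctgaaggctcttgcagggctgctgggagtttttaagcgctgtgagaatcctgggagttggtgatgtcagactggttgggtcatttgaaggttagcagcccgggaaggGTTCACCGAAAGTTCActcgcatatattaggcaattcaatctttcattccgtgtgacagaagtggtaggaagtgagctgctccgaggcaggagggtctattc
Cyp26a1: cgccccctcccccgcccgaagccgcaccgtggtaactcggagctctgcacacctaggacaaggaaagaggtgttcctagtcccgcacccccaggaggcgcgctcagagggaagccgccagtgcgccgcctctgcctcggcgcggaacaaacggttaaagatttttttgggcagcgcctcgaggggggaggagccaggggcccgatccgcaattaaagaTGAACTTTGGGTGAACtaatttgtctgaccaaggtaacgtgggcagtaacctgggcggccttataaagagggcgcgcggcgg
The Rarb window is chr14:16575427-16575726 on the minus strand, and its match lies 52 to 37 bases before the start. The Cyp26a1 window is chr19:37697558-37697857 on the plus strand, and its match, read from the opposite strand, lies 32 to 17 bases before the start. Among all 32851 promoter windows of this length, 81 (0.247%) held such a repeat. No window of Stra6 (4 windows), Rara (4), Rbp4 (2), Crabp1 (1) or Aldh1a2 (1) held one. Repeats with 2 or 3 bases between the same cores, present in 0.402% and 0.399% of all windows, were found in none of the 14. Absence of these letters from a window says nothing about the receptors.

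**Figure D1:**
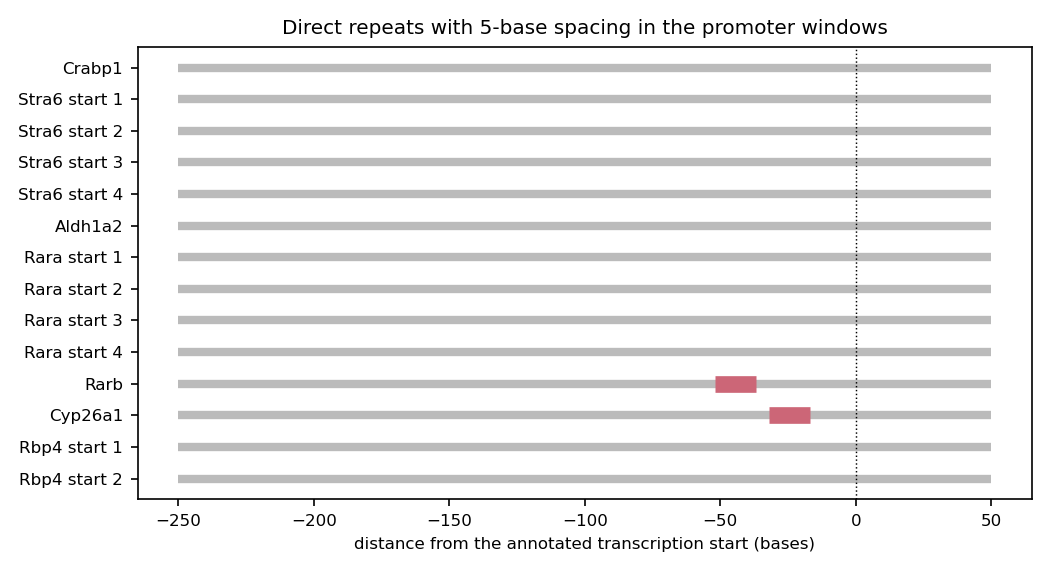
Position of direct repeats of GGTCA or GTTCA with the classical spacing (red) in the 14 promoter windows of 7 genes (grey bars), by distance in bases from the annotated transcription start (dotted line). The matches are in the windows of Rarb, 52 to 37 bases before the start, and Cyp26a1, 32 to 17 bases before it.

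Of the 17 probes, 10 were tested, and each of these was detected on all 5 arrays. They belong to 7 genes. The other 7 probes did not pass the filter. Of these, 6 were not detected on any array and 1, for Rbp4, was detected on 1 array. Among the 10 tested probes 3 were called higher in the Dicer cKO pools (limma, Benjamini-Hochberg adjusted p under 0.05 over all tested probes) and 0 were called lower, while 7 did not pass. At an unadjusted p under 0.05, 5 were higher and 0 lower. Over all 22845 tested probes, 4483 had an unadjusted p under 0.05 in either direction. The unadjusted counts of the further lists below are to be read against that number. Of all 22845 tested probes, 2.35% were called higher and 3.52% lower. For 5 of the 10 both Dicer cKO pools lay above all controls and for 0 below, as they did for 19.6% and 17.1% of all tested probes. These 5 are probes of Aldh1a3, Stra6 and Rarb, so probes of the same gene are counted separately. The members were chosen with earlier results of these data known, so setting their counts beside those of all probes tests nothing. The 3 called probes belong to 2 genes, Aldh1a3 and Stra6, one at the synthesis step and one at the uptake step of the pathway.

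**Figure D2:**
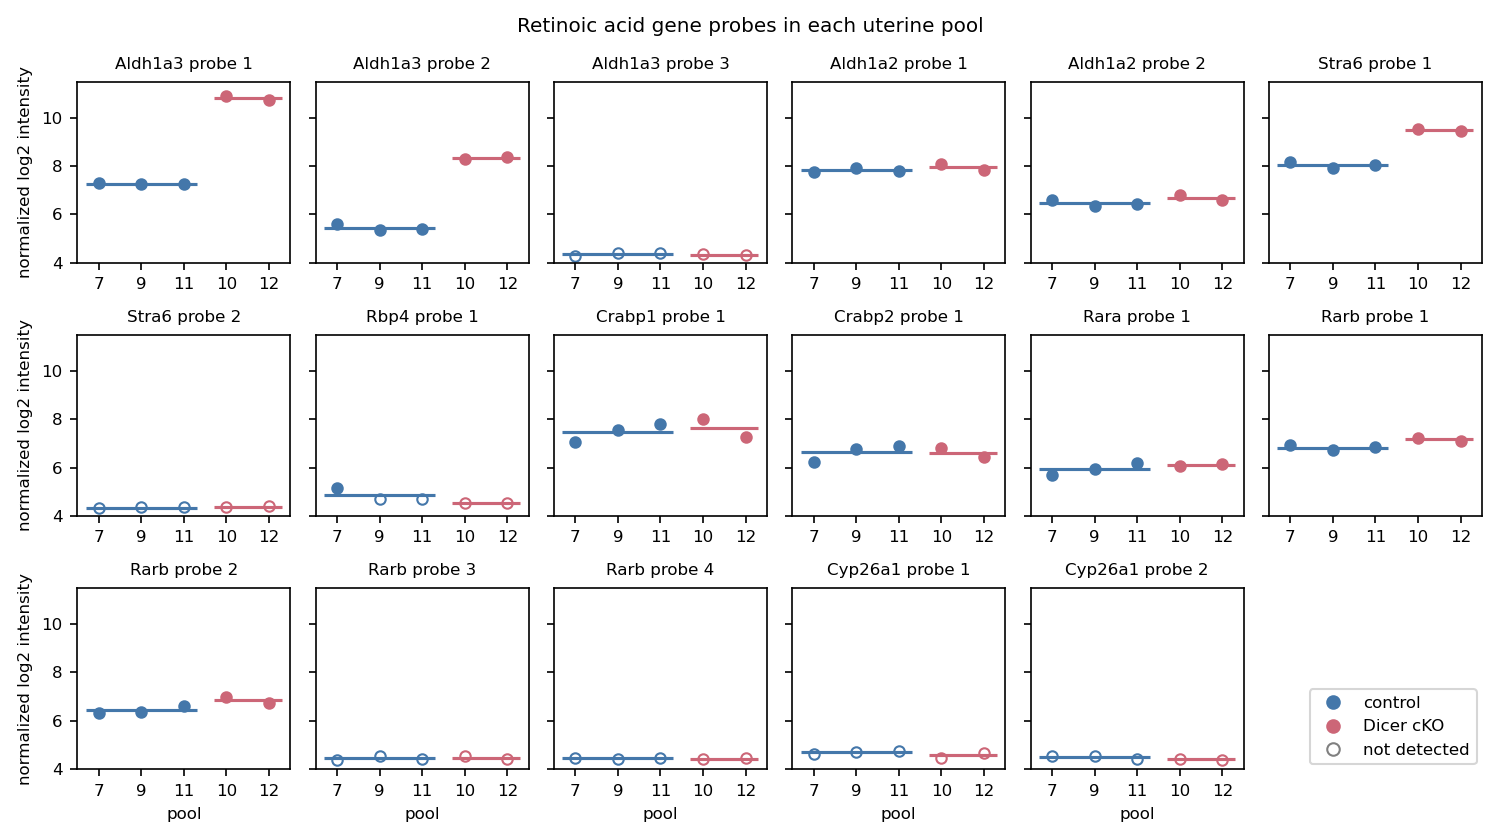
Normalized log2 intensity of the 17 member probes in each pool, with controls in blue, Dicer cKO in red, open circles for arrays on which the probe was not detected (detection p of 0.05 or more) and a line at each group mean. Both upper Aldh1a3 probes and the upper Stra6 probe stand clear of the controls in pools 10 and 12, while the other probes lie close to the controls or show overlap.

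Among the enzymes that make retinoic acid, Aldh1a3 rose and Aldh1a2 did not pass the test. Aldh1a3, the retinaldehyde dehydrogenase known from sensory and epithelial tissues, lies at chr7:66390892-66427477 (GRCm38.p6). Its brightest probe had intensities, as deposited, of 206.8, 188.8 and 170.6 in the controls and of 1807.1 and 1749.2 in the Dicer cKO pools. After background correction and normalization this became 7.30, 7.25 and 7.25 log2 units in the controls and 10.88 and 10.71 in the Dicer cKO pools. The control pools lay within 0.04 log2 units of one another, and both Dicer cKO pools lay far above them. The difference was 3.53 ± 0.10 log2 units (SE; limma adjusted p = 8.3e-08), an 11.6-fold rise with a 95% interval from 9.95-fold to 13.5-fold. With this normalization it was the largest increase among all tested probes. Between 51 and 69 beads stood behind the value on each array.

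The second Aldh1a3 probe gave the same picture from a dimmer signal. It read 5.59, 5.34 and 5.38 log2 units in the controls and 8.28 and 8.39 in the Dicer cKO pools. The groups did not overlap, and the difference of 2.90 ± 0.13 log2 units (limma adjusted p = 3.4e-06) was a 7.46-fold rise, the sixth largest of all tested probes, with a 95% interval from 6.07-fold to 9.17-fold. The intervals of the pair do not meet. The size depends on the background step: with an offset of 50 in place of 16 the second probe differed by 2.21 ± 0.10 and the brightest by 3.27 ± 0.09. The third Aldh1a3 probe was not detected on any array, with 4.29 to 4.39 log2 units in the controls and 4.34 and 4.32 in the Dicer cKO pools. Where the 3 probes lie on the transcript is not given in the files.

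Aldh1a2, the main retinaldehyde dehydrogenase of the embryo and of uterine stroma, lies at chr9:71215789-71296243. Its brighter probe read 7.77, 7.93 and 7.81 log2 units in the controls and 8.09 and 7.84 in the Dicer cKO pools. Pool 12 fell within the range of the controls, and the difference was 0.13 ± 0.12 log2 units (95% interval -0.13 to 0.39; limma adjusted p = 0.605). Its dimmer probe read 6.60, 6.36 and 6.44 in the controls and 6.78 and 6.58 in the Dicer cKO pools, again with overlap, at 0.22 ± 0.14 (95% interval -0.09 to 0.52; limma adjusted p = 0.439). The upper bounds lie below the lower bound of either Aldh1a3 probe.

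The ratio of the brightest Aldh1a3 probe to another enzyme of the family was also compared within each array. Relative to Aldh1a2 the Aldh1a3 signal was 3.40 log2 units higher in the Dicer cKO pools than in the controls, relative to Aldh1a1 it was 3.83 higher, and relative to Aldh1a7 it was 3.54 higher. For each of the 3 ratios both Dicer cKO pools lay above all control pools. An exact 2-sided permutation test gave p = 0.1 for each, also after Benjamini-Hochberg adjustment over the 3, which is the smallest value that 10 splits of 5 pools allow. These ratios were chosen after the values had been seen, and all 3 share the Aldh1a3 values given above. The other enzymes differed far less between the groups than Aldh1a3. The outcome of the permutation test was therefore fixed in advance, and it adds no support.

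Stra6, the membrane receptor that takes up retinol from its carrier, was the other gene that rose. It lies at chr9:58063793-58154004. Its brighter probe had deposited intensities of 349.7, 276.0 and 273.3 in the controls and of 715.9 and 753.8 in the Dicer cKO pools. The normalized values were 8.15, 7.90 and 8.04 log2 units in the controls and 9.53 and 9.47 in the Dicer cKO pools. The Dicer cKO pools lay 0.06 log2 units apart and well above the highest control. The difference was 1.47 ± 0.11 log2 units (limma adjusted p = 3.1e-05), a 2.76-fold rise with a 95% interval from 2.35-fold to 3.25-fold. Of all tested probes, it ranked as the 33rd largest increase. A second Stra6 probe was not detected on any array and lay between 4.31 and 4.41 log2 units throughout.

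The ligand of STRA6, the retinol carrier Rbp4, is made mainly in liver and fat. In these uteri its single probe was detected on control pool 7 alone, at 5.16 log2 units. It read 4.69 and 4.68 in pools 9 and 11 and 4.52 and 4.54 in the Dicer cKO pools, all without detection. Because it was detected on fewer than 2 arrays it was not tested, and no fold is given. Of 5 adipocyte marker genes 3 were tested. In the Dicer cKO pools 2 of them, Adipoq and Cidec, were called lower. Lep overlapped between the groups and was not called (limma adjusted p = 0.734). The summed signal of that list ran from 527 to 952 in the controls and from 264 to 403 in the Dicer cKO pools, with Fabp4 and Plin1 not detected on any array. The part of fat in the Rbp4 signal was not tested.

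**Figure D3:**
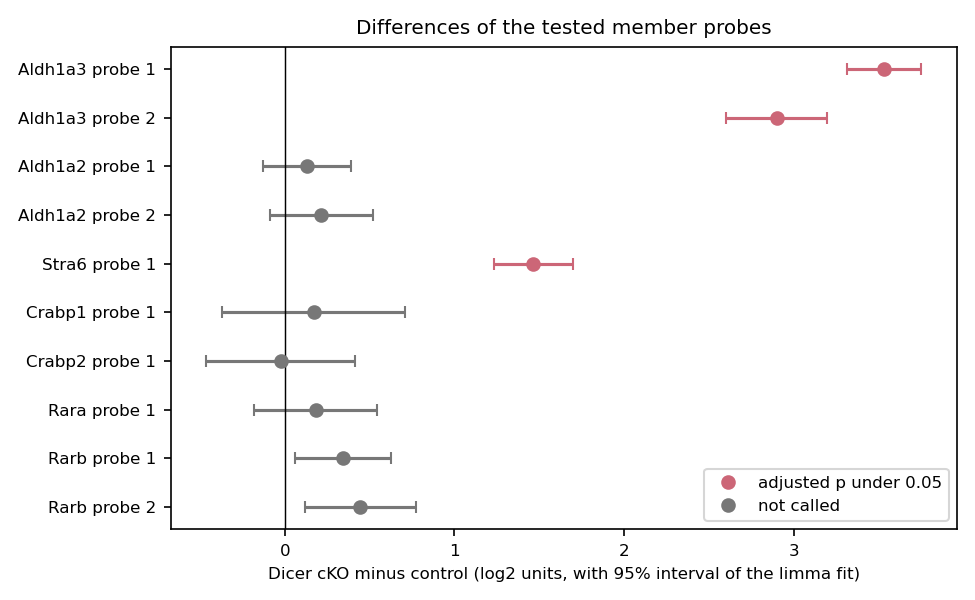
Difference between Dicer cKO and control pools in log2 units for the 10 tested member probes, with the 95% interval of the limma fit and called probes in red. Both Aldh1a3 probes (3.53 and 2.90) and the Stra6 probe (1.47) stand apart from 0, and the other 7 differences lie between -0.02 and 0.45.

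The binding proteins varied more between pools of one group than between the groups. Crabp1, which carries retinoic acid in the cytoplasm, read 7.04, 7.56 and 7.82 log2 units in the controls and 8.01 and 7.27 in the Dicer cKO pools. The Dicer cKO pools lay 0.74 log2 units apart and the controls spanned 0.78, and pool 12 lay within the range of the controls while pool 10 lay above it, at 0.17 ± 0.24 (95% interval -0.37 to 0.71; limma adjusted p = 0.768). Crabp2, which delivers retinoic acid to RAR in the nucleus, read 6.25, 6.75 and 6.91 in the controls and 6.79 and 6.43 in the Dicer cKO pools. Its difference was -0.02 ± 0.20 (95% interval -0.46 to 0.42; limma adjusted p = 0.970). For both genes control pool 7 was the lowest of the 5 and Dicer cKO pool 12 was lower than pool 10.

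Of the receptors, Rara and Rarb were measured and did not pass the test. Rara, the broadly expressed RAR, had 1 probe, which read 5.67, 5.96 and 6.17 log2 units in the controls and 6.08 and 6.16 in the Dicer cKO pools. The Dicer cKO values lay within the range of the controls, with a difference of 0.18 ± 0.16 (95% interval -0.18 to 0.54; limma adjusted p = 0.604).

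Rarb is both a receptor and a textbook direct target of retinoic acid, and its promoter window holds the printed match. Its brightest probe read 6.91, 6.71 and 6.83 log2 units in the controls and 7.24 and 7.09 in the Dicer cKO pools. Both Dicer cKO pools lay above all controls. The difference was 0.34 ± 0.13 (95% interval 0.06 to 0.62; limma adjusted p = 0.161), and it was not called. A second probe read 6.30, 6.36 and 6.62 in the controls and 7.00 and 6.75 in the Dicer cKO pools, again without overlap, at 0.45 ± 0.15 (95% interval 0.12 to 0.77; limma adjusted p = 0.122). The upper bound of either interval lies below the lower bound for Stra6. The other two Rarb probes were not detected on any array.

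Cyp26a1, the enzyme that degrades retinoic acid and another textbook direct target with a printed match, was not detected on any array by either of its probes. The brighter read 4.62, 4.69 and 4.77 log2 units in the controls and 4.46 and 4.68 in the Dicer cKO pools, where the lowest detected signal of an array was 4.93 to 5.03. The dimmer read 4.52, 4.55 and 4.40 in the controls and 4.41 and 4.38 in the Dicer cKO pools. A level below background on these arrays bounds the signal and does not show that the transcript is absent. Cyp26b1, a second enzyme of this kind, was not detected on any array either, so breakdown of retinoic acid by these enzymes could not be compared between the groups.

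The rest of the pathway was read from 35 further genes for retinoid transport, storage, oxidation and reception. Of these, 34 were on the array and 19 were tested with 26 probes. Limma called 0 of them higher and 0 lower, with 0 higher and 2 lower at an unadjusted p under 0.05. The median difference was -0.09 log2 units and the values ran from -0.33 to 0.22, against a median of 0.01 over all tested probes. The probes with the smallest adjusted p were one for the retinol dehydrogenase Rdh14 (-0.27 ± 0.10; limma adjusted p = 0.164) and one for Rdh12 (-0.33 ± 0.13; limma adjusted p = 0.194). Rdh10, the enzyme that makes retinaldehyde in the embryo, Lrat, which stores retinol as ester, and Dhrs3, which turns retinaldehyde back to retinol, were among 12 genes not detected on any array.

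Within this list, Aldh1a1, the other enzyme that makes retinoic acid, differed by -0.30 ± 0.14 log2 units (limma adjusted p = 0.286). The brighter probe of Rarg, the RAR of epithelia and skin, differed by -0.23 ± 0.12 (limma adjusted p = 0.352). Among 9 coregulators of nuclear receptors, 7 were tested with 13 probes and 0 were called by limma, with 1 higher and 1 lower at an unadjusted p under 0.05. A probe of Crebbp, a histone acetyltransferase, had the smallest adjusted p (-0.38 ± 0.14; limma adjusted p = 0.174), followed by one for the Mediator subunit Med1 (0.25 ± 0.10; limma adjusted p = 0.175). The other tested Crebbp probes differed by -0.12 and -0.32 and the other tested Med1 probe by -0.03.

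No gene was called in a further list of genes known to respond to retinoic acid in other tissues. That list leaves out the members, Stra6 among them. Of 18 listed, 17 were on the array, 10 were tested with 16 probes and limma called 0, with 2 probes higher and 3 lower at an unadjusted p under 0.05. Their median difference was -0.0023 log2 units. Probes listed as BHLHB2 and as STRA13 were both counted for Bhlhe40, and whether the latter belong to that gene is unknown. Tgm2, the tissue transglutaminase, read 13.14, 13.07 and 13.00 log2 units in the controls and 12.75 and 12.86 in the Dicer cKO pools, at -0.26 ± 0.07 (limma adjusted p = 0.063). A Meis1 probe, for a homeobox gene, read 8.61, 8.95 and 8.27 in the controls and 9.08 and 9.29 in the Dicer cKO pools, at 0.57 ± 0.17 (limma adjusted p = 0.082). The brightest Meis1 probe differed by 0.17 ± 0.08 (limma adjusted p = 0.280) and the dimmest tested by 0.12 ± 0.15 (limma adjusted p = 0.731). Hoxb1, Stra8 and Cdx1, which respond early to retinoic acid, were not detected on any array.

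**Figure D4:**
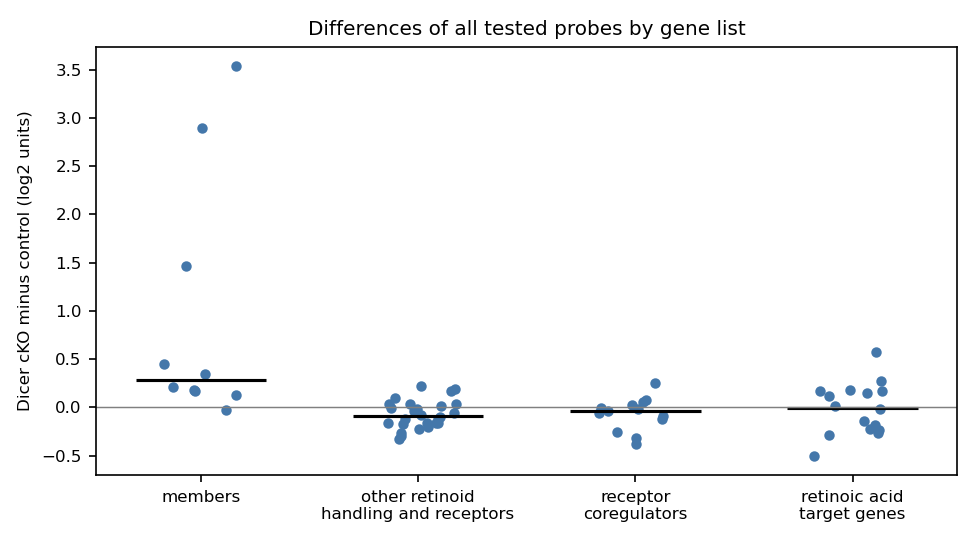
Difference between Dicer cKO and control pools in log2 units for every tested probe of the 9 members, the other retinoid genes, the receptor coregulators and the retinoic acid target genes, each point 1 probe and each line the median of the list. The 3 called probes, at 3.53, 2.90 and 1.47, are members, and no probe of the other lists lies beyond 0.57.

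Since whole uteri were read, more cells of a type and more RNA per cell cannot be told apart for Aldh1a3 or Stra6. Marker lists of the cells present moved as follows. Of 5 simple-epithelium probes tested, 3 were called lower, for Krt8, Krt18 and Krt19, with a summed normalized signal of 6397 to 7720 in the controls and 5006 to 5141 in the Dicer cKO pools, and Epcam was not detected on any array. Of 4 stratified-epithelium probes tested, 1 was lower, for Krt10, with summed signals of 1061 to 1169 against 875 to 920. Of 8 macrophage probes tested, 1 was higher, for Cd68 (0.81 ± 0.13), with summed signals of 1084 to 1239 against 1168 to 1486. Of 12 stromal probes tested, 1 was lower, for Thy1, with summed signals of 51610 to 52924 against 42373 to 49629. At an unadjusted p under 0.05, 7 of the 12 stromal probes were lower and 0 higher, with a median difference of -0.25 log2 units over the list. The same counts were 4 lower and 0 higher for simple epithelium, 2 lower and 0 higher for stratified epithelium and 0 lower and 2 higher for macrophages. Of 8 smooth muscle, 6 mesothelium and 7 endothelium probes tested, limma called 0, with 1 (higher), 0 and 1 (lower) at an unadjusted p under 0.05. Of 2 oviduct and ciliated-cell genes, Foxj1 was not called (limma adjusted p = 0.705), and the secreted oviduct protein gene Ovgp1 was lower: its tested probe read 7.88, 8.50 and 6.71 log2 units in the controls and 5.17 and 5.07 in the Dicer cKO pools, at -2.57 ± 0.39 (limma adjusted p = 0.0033). Of 4 ovary genes, Gdf9 alone was tested and was not called (limma adjusted p = 0.991). The part of these lists in the rise of Aldh1a3 and Stra6 was not tested.

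The tested probes of other genes whose profile over the 5 pools lay nearest to that of Aldh1a3 were Lce3c, a late cornified envelope gene listed on the array as Sprrl1, the tight junction gene Cldn6 and Gpnmb, a glycoprotein of lysosome-rich cells. Likeness was the root mean square difference of log2 values after subtracting each probe's mean over 5 pools, at 0.23, 0.25 and 0.31 log2 units. Lce3c rose by 3.16 ± 0.17, Cldn6 by 3.06 ± 0.13 and Gpnmb by 3.34 ± 0.20 (limma adjusted p from 2.8e-06 to 1.3e-05). Lce3c and Gpnmb were each detected on 2 of the 3 control arrays, close to the lowest detected signal for Lce3c, so the sizes of their differences rest on controls near background. Nearest to Stra6 were Prtg, the gene of the immunoglobulin-family protein protogenin, listed as A230098A12Rik, at 0.10, a probe listed as PUNC at 0.12 and Cpm, a carboxypeptidase gene, at 0.13. Prtg was detected on both Dicer cKO arrays and on 0 of the 3 control arrays, so only a bound is given. It was at least 2.29-fold higher, taking for each control array its lowest detected signal. The limma adjusted p of 0.00027 for Prtg comes from the fit to the normalized values and does not test that bound. PUNC rose by 1.31 ± 0.12 and Cpm by 1.32 ± 0.09 (limma adjusted p of 0.00015 and 2.3e-05). With 5 pools in 2 groups, such likeness reflects mostly the size of the group difference.

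**Figure D5:**
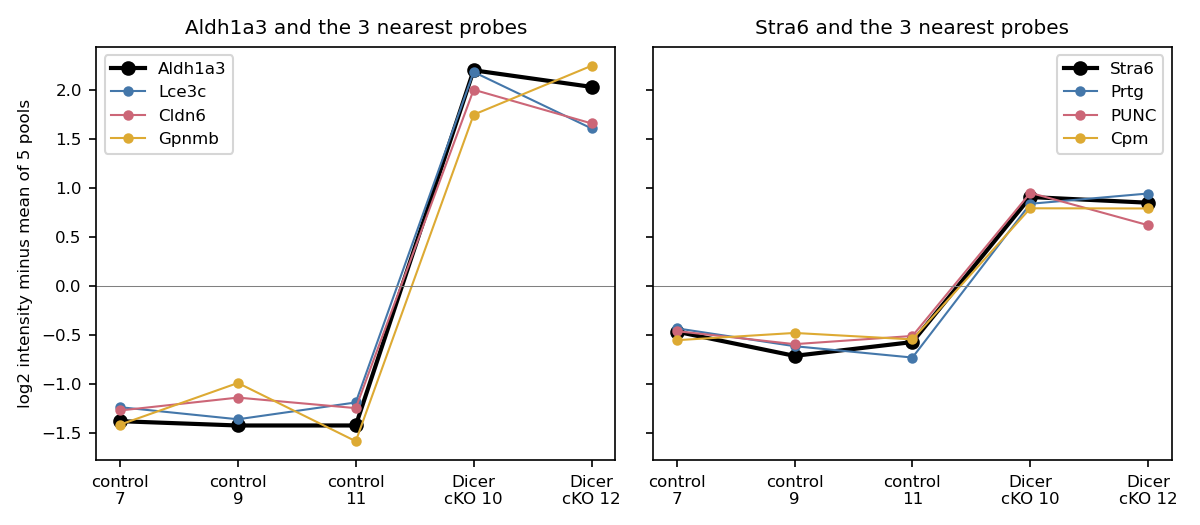
Log2 intensity minus the mean of the 5 pools for the brightest Aldh1a3 probe (left, black) and Stra6 probe (right, black) with the 3 nearest probes of other genes, by pool. In both panels all 4 lines lie below 0 in the control pools and above 0 in both Dicer cKO pools.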

How the data were processed

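Per the labels, biotin-labelled total RNA of each pool was read on 1 Illumina bead array. They give the array as human WG-6 (v3), although the files carry mouse gene names, which were used as given. The authors deposited, per the file headers, the mean intensity of the beads of each probe, its SD, the bead count and a detection score, a fraction whose complement served as detection p. BeadStudio (version not stated) is the tool in the submitters' processing notes. The intensity values are linear, with no background subtraction or normalization visible in them. A deposited table of the series, quantile-normalized (median intensity 71.1 in all 5 columns), shared 339 of 45281 row numbers with the probes by number alone and was not used.

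In limma 3.58.1 (R 4.3.3), neqc applied normexp correction (offset 16), quantile normalization and log2. Probes detected (p under 0.05) on at least 2 arrays were tested one by one with lmFit and eBayes (intensity trend, 2-sided, no covariate), with Benjamini-Hochberg adjustment over all 22845. A difference is Dicer cKO minus control. The fit was tested on simulated data with independent normal noise for each probe. That test does not cover effects shared by the probes of an array. The p-values rest on the spread between pools, and the number of arrays limits the precision. A probe has 3 residual degrees of freedom, and eBayes adds information on the spread from the other probes. Each sample was a pool, so the spread between animals was not measured. Neither labels nor files name a slide or scan, so no batch was tested.

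The members, lists and tests were chosen with earlier results of these data known. The naming rule took every member probe, the called probes of each further list or its 2 smallest adjusted p, the 3 nearest profiles of Aldh1a3 and Stra6, and Dicer1 and Pgr. Other genes were named after their values were seen. Alternatives changed the offset, background correction, normalization, filter, spread estimate, probe choice and set of pools.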

Additional observations from a re-analysis of the deposited data

How the results depend on the processing

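Aldh1a3 and Stra6 kept their direction and their call in every alternative run, with 3.27 to 3.61 log2 units for the brightest Aldh1a3 probe over 13 settings, 2.21 to 2.96 for the second over 12 and 1.36 to 1.52 for Stra6 over 13. The largest limma adjusted p among them was 0.0021. The member count stayed at 3 higher and 0 lower, except that it was 2 higher with the brightest probe of each gene, which holds 1 Aldh1a3 probe. The Rarb probes lay between 0.27 and 0.57 and were not called in any setting (limma adjusted p from 0.0722 to 0.553). With 1 pool left out at a time, the count of all probes called ran from 356 (Dicer cKO 10 left out) to 1235, against 1340 with all pools. It was 791 with control 7 left out and 833 with control 9 left out. The count of target genes called then ran from 0 to 1, with Meis1 higher in the absence of control 9 and Rarres2 lower in the absence of Dicer cKO 12. Over the same fits the difference changed sign for both binding proteins, from -0.20 to 0.54 for Crabp1 and from -0.21 to 0.16 for Crabp2. Where 1 Dicer cKO pool was left, it was assumed to vary like the controls. With no detection filter, the 7 member probes left untested were not called either (limma adjusted p from 0.339 to 0.973). No paired analysis was possible because the groups share no pool number. The deposited normalized table was not run, since its rows could not be matched to probes. Probes near background, such as those of Rbp4 and Cyp26a1, limit what can be said of these genes.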
